A study of Mus musculus with 12 samples.

Results

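Mist1 regions at transcription start sites (TSSs) were defined as stretches of the mouse genome that were bound by Mist1 in both Bio-ChIP-seq experiments, were under 3000 bp wide and reached into the 1000 bp on either side of the TSS of a protein-coding transcript. Of 23806 common Mist1 regions, 7451 (31.3%) fulfilled these criteria, and another 431 regions at a TSS were 3000 bp or wider and were not included. The remaining common regions under 3000 bp consisted of 8826 in gene bodies and 6809 in distal sequence. The choice of the members used positions and neither E-boxes nor mRNA levels, although promoters differ from other sequence in base composition and lie at genes.

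Mist1, encoded by Bhlha15, is a basic helix-loop-helix transcription factor that binds DNA as a dimer at E-boxes, which are hexamers of the form CANNTG. It is known for its role in professional secretory cells, such as pancreatic acinar cells and plasma cells, in which it controls genes of vesicle transport and cell architecture. Xbp1, a transcription factor of the unfolded protein response (UPR), lies upstream of Bhlha15.

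Mist1 binding was measured in plasmablasts (PBs) of Bhlha15(fl/fl) R26(BirA/BirA) mice. In these mice the floxed allele carries a biotin acceptor sequence at the N-terminus of Mist1 and the BirA ligase biotinylates it, so that streptavidin precipitates the bound chromatin. The splenic B cells were stimulated for 4 days with LPS and enriched for CD138+ PBs. The mRNA data consisted of 2 libraries for each of 5 groups. Splenic plasma cells (PCs) were sorted as TACI+CD138+ cells on day 7 after immunization with NP-KLH from Cd23-Cre Bhlha15(fl/fl) mice, which delete Bhlha15 in B cells, and from control mice, which the sample labels call wildtype and the methods of the study call Bhlha15(fl/fl). The PB libraries came from day 8 of culture on a feeder cell line (iGB system). The control PBs had the genotype Xbp1(fl/fl), the Xbp1-deficient PBs the genotype Cd23-Cre Xbp1(fl/fl), and the Mist1-deficient PBs the genotype Bhlha15(CreER/CreER). The PCs of Cd23-Cre Bhlha15(fl/fl) mice are called Mist1-deficient PCs below. All mice had the C57BL/6 background, and neither the age of the mice nor their number per library is given in the sources used here. Binding and mRNA were thus measured in cells made in different ways, and no mRNA library came from the LPS-stimulated PBs used for Bio-ChIP.

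The 2 lists contained 29413 and 30247 peaks as positions without heights, so that the depth and the strength of binding were unknown. The mRNA levels are TPM, that is, transcript numbers relative to the sum over all genes except immunoglobulin and T cell receptor genes. They are scaled to the same total in every library and come with no record of depth. In bulk samples, fewer cells of a type and less RNA per cell cannot be told apart. Plasma cell markers summed to between 38690 and 42140 TPM in Mist1-deficient PBs, to between 42050 and 42080 TPM in control PBs and to between 91690 and 98970 TPM in the 4 PC libraries, and were lowest in Xbp1-deficient PBs at 21310 to 21930 TPM, a list that includes Xbp1 itself. Xbp1 was lower in Xbp1-deficient PBs, as given below, whereas Prdm1 and Irf4, also on this list, were not. Prdm1 was at 205 and 175 TPM in control PBs and at 239 and 296 TPM in Xbp1-deficient PBs. Irf4 was at 683 and 652 TPM and at 865 and 971 TPM. The other markers were not examined singly, so that the sum gives no number of cells. Markers of fibroblasts, to which a feeder line could contribute, summed to between 911.1 and 1774 TPM in the PB libraries and to at most 12.1 TPM in PCs. Markers of neutrophils summed to between 461 and 988 TPM in PCs, to 10.3 and 11.6 TPM in control PBs and to 133 and 134 TPM in Xbp1-deficient PBs. Markers of B cells summed to between 978.5 and 1318 TPM in control PCs and to between 763 and 841.6 TPM in Mist1-deficient PCs, and those of macrophages to between 134.3 and 136.2 TPM in control PBs and to between 32.38 and 34.87 TPM in Xbp1-deficient PBs. The part of these other cells in the results was not tested.

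Width and distance from the TSS were limited by the choice of the regions and are given as a description. The width had a median of 1318 bp (quartiles 970 and 1755 bp), compared with 910 bp for regions in gene bodies and 886 bp for distal regions. The region covered the TSS itself in 6289 cases (84.4%), lay downstream of it in 670 cases and upstream of it in 492 cases. The midpoint was within 250 bp of the nearest TSS in 52.7% and within 500 bp in 75.9% of the regions. It lay 80 bp downstream of the TSS in the median (quartiles 112 bp upstream and 326 bp downstream), and 61.7% of the midpoints were downstream and 37.99% upstream. A single gene had a TSS in reach of 6537 regions, whereas 894 regions reached 2 genes and 20 regions reached 3 or more. Genes on both strands were in reach of 851 regions (11.4%), as at divergent promoters.

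**Figure D1:**
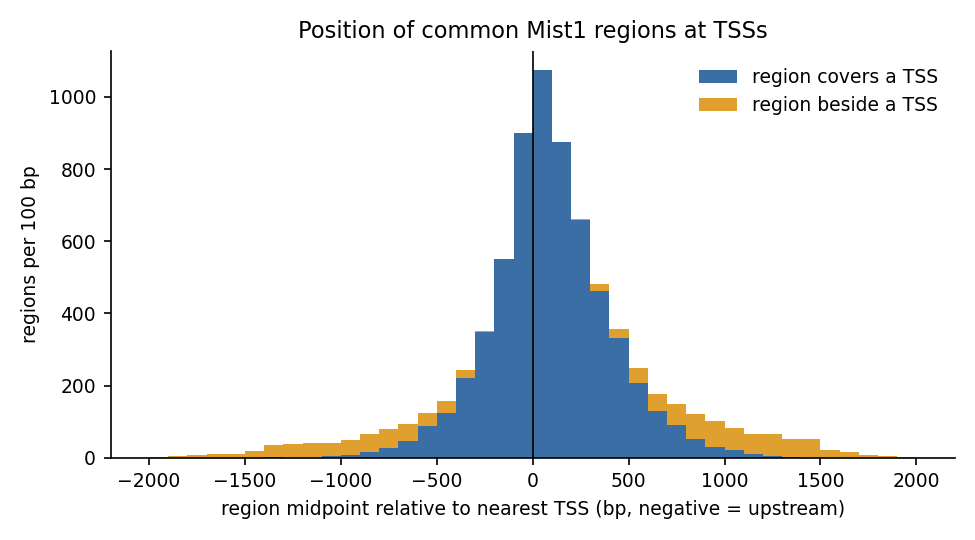
Number of common Mist1 regions at a TSS per 100 bp (vertical axis) by the distance of the region's midpoint from the nearest TSS in bp (horizontal axis, negative values upstream). Blue bars are the 6289 regions that cover a TSS and yellow bars, stacked on them, the 1162 that lie beside it. The tallest bar stands just downstream of the TSS.

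The overlap of the experiments was part of the choice, so that their offsets are also a description. In 6906 regions (92.7%) each list contributed 1 peak, and the centres of these peaks were 79.3 bp apart in the median, with a 95th percentile of 348 bp. A median of 80.9% of the bases of a region lay in both lists, and 477 regions shared under 50% of their bases. At the distance limit, 94 members had their nearest edge in the last 100 bp inside 1000 bp from the TSS, and 86 regions outside the set had it in the next 100 bp. Favoured E-boxes, which are defined in the next paragraphs, occurred in the centre of 71.3% and 58.1% of these regions, respectively. At the width limit, 59 members were up to 100 bp narrower than 3000 bp and 58 excluded regions had 3000 bp or less than 100 bp more, with favoured E-boxes in the centre of 39.0% and 43.1%.

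The DNA under the regions is shown for the genes with a member that changed most upon loss of Mist1 in PCs, since these are the promoters on which the expression data below bear. For each gene, the favoured E-box closest to the midpoint of the region was chosen among those outside untranslated sequence, and up to 45 bases on either side are printed in the direction of the gene. The capitals mark every E-box in the window, the lower case the sequence around it, and the annotation refers to the E-box that was chosen. Kif19a had no E-box outside untranslated sequence and is not shown.
Bhlha15 (mm9, chr5:144951055-144951150, plus strand, upstream of the annotated transcripts): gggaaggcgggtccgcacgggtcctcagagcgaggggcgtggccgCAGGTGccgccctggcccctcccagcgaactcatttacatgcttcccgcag
Rab3d (mm9, chr9:21722216-21722311, minus strand, intron): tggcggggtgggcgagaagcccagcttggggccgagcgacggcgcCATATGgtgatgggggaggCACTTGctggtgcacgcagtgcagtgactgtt
Rab26 (mm9, chr17:24670153-24670248, minus strand, intron): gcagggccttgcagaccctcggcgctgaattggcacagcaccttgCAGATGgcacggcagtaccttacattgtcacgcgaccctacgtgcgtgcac
Dll3 (mm9, chr7:29086703-29086765, minus strand, coding exon): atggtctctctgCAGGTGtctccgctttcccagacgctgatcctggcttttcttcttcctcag
Asap3 (mm9, chr4:135762663-135762758, plus strand, intron): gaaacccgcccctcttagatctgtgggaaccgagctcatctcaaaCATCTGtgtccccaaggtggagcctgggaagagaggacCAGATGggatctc
Nes (mm9, chr3:87775368-87775463, plus strand, coding exon): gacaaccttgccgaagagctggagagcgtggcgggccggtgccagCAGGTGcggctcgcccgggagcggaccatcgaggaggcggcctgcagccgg
Gm996 (mm9, chr2:25437192-25437287, minus strand, upstream of the annotated transcripts): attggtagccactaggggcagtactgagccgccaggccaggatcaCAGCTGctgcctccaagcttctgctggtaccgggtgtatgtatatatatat
Tmem150a (mm9, chr6:72305829-72305924, plus strand, intron): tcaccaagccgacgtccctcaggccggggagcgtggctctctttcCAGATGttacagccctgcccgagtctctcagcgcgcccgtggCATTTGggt
2410066E13Rik (mm9, chr6:54631471-54631566, plus strand, upstream of the annotated transcripts): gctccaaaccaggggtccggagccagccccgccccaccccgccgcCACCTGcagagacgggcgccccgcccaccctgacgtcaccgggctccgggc
Car5b (mm9, chrX:160465710-160465805, minus strand, intron): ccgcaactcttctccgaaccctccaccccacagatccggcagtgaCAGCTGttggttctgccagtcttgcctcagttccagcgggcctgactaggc
Tubb2a (mm9, chr13:34169270-34169365, minus strand, intron): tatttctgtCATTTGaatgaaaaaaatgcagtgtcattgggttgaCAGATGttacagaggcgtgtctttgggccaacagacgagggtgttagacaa
Abcb6 (mm9, chr1:75176428-75176523, minus strand, coding exon): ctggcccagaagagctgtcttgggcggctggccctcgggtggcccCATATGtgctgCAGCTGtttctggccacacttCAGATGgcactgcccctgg
Cib2 (mm9, chr9:54407742-54407825, minus strand, coding exon): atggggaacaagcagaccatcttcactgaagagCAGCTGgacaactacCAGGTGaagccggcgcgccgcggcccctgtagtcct
Mrgpre (mm9, chr7:150969835-150969930, minus strand, intron): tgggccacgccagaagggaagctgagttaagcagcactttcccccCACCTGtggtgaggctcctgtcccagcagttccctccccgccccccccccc
1700026L06Rik (mm9, chr2:28554250-28554345, minus strand, intron): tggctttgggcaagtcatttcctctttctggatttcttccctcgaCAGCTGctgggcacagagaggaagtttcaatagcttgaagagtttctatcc

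These stretches contained between 1 and 3 E-boxes each. In Bhlha15 itself a CACCTG E-box, read on the opposite strand, stood upstream of the annotated transcripts. Abcb6 carried 3 favoured E-boxes of 3 classes in a window on a coding exon, and Cib2 carried 2 in a window on a coding exon. The E-boxes of Rab3d and Rab26 lay in introns. An E-box in these letters is a match and not a measured site of contact.

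E-boxes were counted on both strands, so that the 16 possible hexamers form 10 classes. The classes favoured by Mist1 were taken from the common regions that are not members. A class was called favoured if its share in the central 200 bp exceeded that in flanking windows 1500 bp away by more than 1.5-fold in gene body regions and in distal regions alike. This applied to CAGCTG (3.69-fold and 3.61-fold), CATATG (3.52-fold and 2.83-fold), CAGATG (1.90-fold and 1.81-fold) and CACCTG (1.51-fold and 1.53-fold). This definition was chosen after the values had been seen, and the last class passed it narrowly.

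Regions at a TSS held fewer E-boxes in their centre than other Mist1 regions. Any E-box occurred in the central 200 bp of 59.97% of the members (95% Clopper-Pearson interval 58.84 to 61.08%, counting error only), compared with 85.9% of gene body regions and 84.3% of distal regions. The peaks of the individual experiments at a TSS gave 61.96% and 61.39%. Windows of the same length contained an E-box at 53.3% of all TSSs at 56.6% of the TSSs without a Mist1 region within 1 kb and at 47.11% of the TSSs within 1 kb of a member. In the flanking windows 1500 bp from the midpoints of the members, 63.49% contained an E-box. A favoured E-box was present in the centre of 44.2% of the members, 71.8% of gene body regions and 69.9% of distal regions, and in 33.3% of the windows at all TSSs. It was present at 34.88% of the TSSs without a region, at 30.28% of the TSSs within 1 kb of a member and in 35.13% of the flanking windows of the members. Over the whole region 94.95% of the members contained a favoured E-box, at 2.60 per kb compared with 4.01 and 3.91 per kb in gene body and distal regions, and 81 members lacked any E-box. Regions are not replicates, so that these shares are descriptions without a test.

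The classes differed in how much they set the members apart. CAGCTG was found in the centre of 20.01% of the members, 33.1% of gene body regions, 31.2% of distal regions and 12.5% of windows at all TSSs. CATATG was found in 3.26% of the members, 16.6% of gene body regions and 14.4% of distal regions, while 1.40% of all TSS windows contained it. CAGATG occurred in 12.4% of the members and 28.2% and 28.1% of the other regions (all TSSs 9.71%), and CACCTG in 17.8%, 21.7% and 21.4% (all TSSs 14.9%). In the members, the share in the centre exceeded that in the flanks for CAGCTG (8.274% in the flanks, a ratio of 2.42) and CACCTG (15.06%, a ratio of 1.18) but not for CAGATG (13.05%, a ratio of 0.949) and CATATG (3.939%, a ratio of 0.828). CACGTG, which is not among the favoured classes, occurred in 5.22% of the members, 3.63% of gene body regions and 3.72% of distal regions, against 5.19% at all TSSs and 2.745% in the flanks of the members. The GC box GGGCGG, a motif of housekeeping promoters, was present in 37.7% of the members, 4.66% of gene body regions and 6.10% of distal regions, and in 38.6% of the windows at all TSSs. CCAAT was present in 18.5% of the members and at 24.5% of all TSSs.

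The base composition of the members was that of CpG-rich promoters. The central 200 bp contained 13 CpG dinucleotides in the median with a GC content of 61.5%, whereas gene body and distal regions each contained 2 CpG with a GC content of 46.5% and 47.5%. At least 10 CpG were present in the centre of 61.3% of the members. The share of members with a favoured E-box in the centre was 65.5% with 0 or 1 CpG, 55.2% with 2 to 4, 48.1% with 5 to 9, 44.7% with 10 to 14, 40.3% with 15 to 19 and 33.1% with 20 or more. In gene body regions with 0 or 1 CpG it was 72.8%, and in the 54 gene body regions with 20 or more CpG it was 51.9%. At TSSs without a Mist1 region it was 40.9% with 0 or 1 CpG and 18.4% with 20 or more. The share also differed with position, from 39.0% for midpoints within 100 bp of the TSS to 58.6% for midpoints over 1000 bp away, where the median number of CpG was 18 and 3, respectively. CpG content and distance from the TSS moved together, and their parts in the E-box share were not separated.

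**Figure D2:**
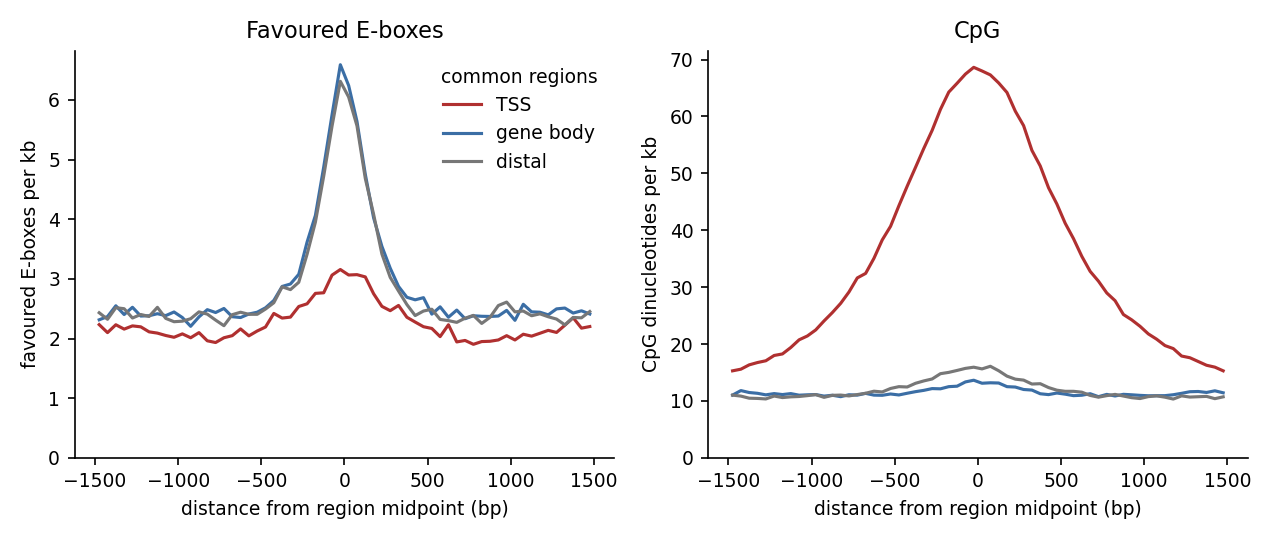
Favoured E-boxes per kb (left) and CpG dinucleotides per kb (right) by distance from the region midpoint in bp, for common Mist1 regions at a TSS (red, n = 7451), in gene bodies (blue, n = 8826) and in distal sequence (grey, n = 6809), each line a mean over regions in 50 bp steps. Close to the midpoint the E-box density peaks at 3.16 per kb at TSSs, 6.59 per kb in gene bodies and 6.31 per kb in distal sequence, and the CpG density at 68.6 per kb at TSSs and at most 16.1 per kb elsewhere.

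The members lay at the TSS of 7580 of 22372 protein-coding genes (33.9%). Another 417 genes had only a wide region at a TSS, 2481 had a common Mist1 region within 10 kb only, and 11894 had none. Of the 7580 genes, 7291 (96.2%) could be matched to the expression files. Among 4291 genes whose TSSs fall into groups over 3 kb apart, 1930 had a member at some TSS. Of these, 148 had a member at every group of TSSs and 1782 at some groups only. The group at the outermost 5′ end was among them in 1416 genes, and 366 genes had a member only at a downstream group.

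Most of the matched genes tested in PCs had a TSS region, although Mist1 binding was measured in LPS-stimulated PBs and not in PCs. Of 11030 matched genes tested in PCs, 61.69% had a member (95% Clopper-Pearson interval 60.77 to 62.59%, counting error only). By mean TPM in control PCs, the share with a member was 1.70% of genes listed at 0, 10.3% of genes up to 1 TPM, 33.1% between 1 and 5 TPM, 56.7% between 5 and 20 TPM, 70.6% between 20 and 100 TPM, 75.2% between 100 and 500 TPM and 69.1% of the 220 genes above 500 TPM. The levels in control PBs gave 2.34%, 10.9%, 34.0%, 56.5%, 70.1%, 72.2% and 70.7% for the same classes. Genes with a member had a median of 33.4 TPM in control PCs (quartiles 12.5 and 77.5 TPM), genes with a wide region 74.8 TPM, genes with a region within 10 kb only 2.30 TPM and genes without a region 0.0239 TPM. A favoured E-box in the centre was present for 66.3% of the 83 genes with a member listed at 0 in control PCs, with a median of 6 CpG, and for 41.3% of the 3335 genes between 20 and 100 TPM, with a median of 15 CpG.

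**Figure D3:**
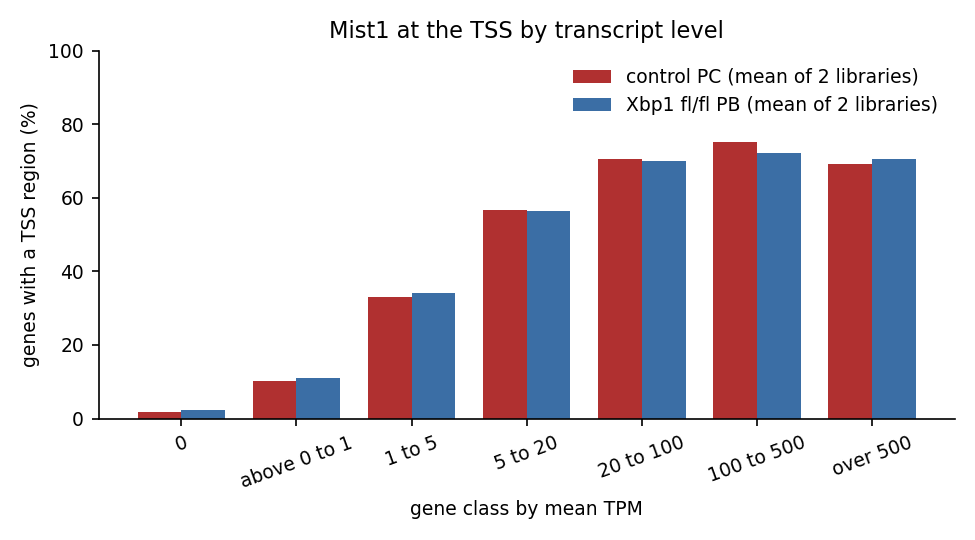
Share of genes in percent with a common Mist1 region at a TSS (vertical axis, from 0) for classes of mean TPM (horizontal axis) in control PCs (red) and control PBs (blue), each the mean of 2 libraries. The share lies between 1.70 and 2.34% for genes listed at 0 and between 69.1 and 75.2% for genes above 20 TPM.

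Genes on the X chromosome were an exception. Of 285 X-linked genes above 5 TPM in control PCs, 100 (35.1%) had a member, compared with 6109 of 8928 (68.4%) autosomal genes above this level and with between 62.2% and 73.0% on the individual autosomes. The median level of these genes was 35.8 TPM on the X chromosome and 38.2 TPM on the autosomes. The peaks of each experiment alone gave 40.7% and 40.7% for X-linked genes and 75.9% and 76.2% for autosomal genes. The sex of the mice is not given in the sources used here.

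The share of genes with a member, which was 33.9% of all protein-coding and 61.69% of tested genes, is given for several gene families. Of 82 ribosomal protein genes 57 (69.5%) had a member, as did 23 of 39 proteasome subunit genes (59.0%), 22 of 36 genes of complex I of the respiratory chain (61.1%) and 44 of 66 replication-dependent histone genes (66.7%). Zinc finger genes had a member in 155 of 340 cases (45.6%). Of 1087 olfactory receptor genes only Olfr1341 and Olfr370 (0.184%) had one, and of 46 keratin genes only Krt222 (2.17%). A favoured E-box in the centre was present for 9 of the 57 ribosomal protein genes (15.8%), 5 of the 22 complex I genes (22.7%), 14 of the 44 histone genes (31.8%), 9 of the 23 proteasome genes (39.1%) and 77 of the 155 zinc finger genes (49.7%), beside 44.2% of all members, and these differences were not tested. The highest levels among ribosomal protein genes with a member were those of Rpl8, at 2533 and 2363 TPM in control PCs, and Rpl4, at 2383 and 2259 TPM. Not all genes with high levels in PCs had a Mist1 region nearby. Ly6c2, Prdx4, Rps21, Cope and Ndufa1 had no common Mist1 region within 10 kb and were expressed at 684 to 2444 TPM in control PCs. Ly6c2 encodes a surface antigen of the Ly6 family and Prdx4 a peroxiredoxin of the ER, and Prdx4 and Ndufa1 are X-linked.

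Conversely, 36 genes with a member were listed at 0 in all 10 libraries, of 2411 genes listed at 0. Of these 36 genes, 11 encode keratin-associated proteins (Krtap genes), which build the hair shaft, a group that was singled out after its values had been seen. Of 46 annotated Krtap genes, 12 had a member. The regions of the 11 genes contained between 6 and 49 E-boxes, compared with a median of 6 in the regions of all matched genes with a member. The coding sequence of these genes is repetitive, and the stretches near the midpoints of 2 regions are printed to show that the E-boxes recur within the repeat. Near-identical copies lie next to each other, and how reads were placed among the copies was not tested.
Krtap9-5 (mm9, chr11:99810403-99810498, plus strand, coding exon): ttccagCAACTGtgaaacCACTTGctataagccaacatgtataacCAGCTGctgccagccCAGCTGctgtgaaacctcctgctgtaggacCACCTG
Krtap4-9 (mm9, chr11:99646976-99647071, plus strand, coding exon): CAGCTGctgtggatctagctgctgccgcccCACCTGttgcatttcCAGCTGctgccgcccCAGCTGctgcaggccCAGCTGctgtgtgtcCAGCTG

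In the Krtap4-9 window 6 favoured E-boxes stood in 96 bases, 5 of them of the class CAGCTG, and in the Krtap9-5 window 3 of 5 E-boxes were favoured.

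A small part of the genes with a member was called lower in Mist1-deficient PCs at the thresholds given below. Bhlha15 itself was at 258 and 242 TPM in control PCs and at 14.4 and 16.6 TPM in Mist1-deficient PCs, which checks the labels. It was at 176 and 159 TPM in control PBs, at 0.210 and 0.551 TPM in Mist1-deficient PBs and at 3.57 and 2.60 TPM in Xbp1-deficient PBs. Xbp1 fell from 3168 and 3043 TPM to 1981 and 2024 TPM in Xbp1-deficient PBs, a level over the whole gene that does not separate the deleted part from the rest. A gene counted as called where limma gave an adjusted p under 0.05 (Benjamini-Hochberg over all genes tested), the fold exceeded 3 and the group with the higher level had a mean above 5 TPM. Of 6804 tested genes with a member, 53 (0.779%) were called lower in Mist1-deficient PCs, compared with 0.723% of all 12028 genes tested, and 1 was called higher, compared with 0.125% of all genes. The share called lower among genes with a member was thus near that of all genes. Bhlha15, the gene deleted in these PCs, is among the 53 genes and in the counts drawn from them below. Genes with a wide region were called lower in 8 of 388 cases (2.06%), and genes without a region within 10 kb in 8 of 2541 cases (0.315%), while 10 of the latter were called higher (0.394%).

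By adjusted p alone, 1380 genes with a member (20.3%) fell and 834 (12.3%) rose, compared with 16.2% and 13.3% of all genes tested. Among genes without a region within 10 kb, 178 (7.01%) fell and 417 (16.4%) rose, and among genes with a wide region 146 (37.6%) fell and 28 (7.22%) rose. The median log2 fold change was -0.02 for genes with a member, -0.16 for genes with a wide region, 0.09 for genes without a region and 0.01 for all genes. The expression level differed between these classes, as given above, and its part in the counts was not tested.

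Within the members, the changes differed with the E-boxes. A favoured E-box in the centre was present at 37 of the 53 genes called lower (69.8%), compared with 43.7% of the 6804 tested genes with a member. At least 2 of them were present at 17 of the 53 genes (32.1%) and at 12.6% of the tested genes. Counted from the sequence, 37 of 2972 genes with a favoured E-box in the centre (1.24%) and 16 of 3832 genes without one (0.418%) were called lower. By adjusted p, 24.6% of the former and 16.9% of the latter fell, and 9.99% and 14% rose, with median log2 fold changes of -0.07 and 0.02. The number of CpG moved with this as well, since 26.3% of the genes with under 5 CpG, 24.1% of those with 5 to 14 CpG and 15.9% of those with 15 or more CpG in the centre fell. The parts of E-boxes and CpG were not separated, and genes are not replicates, so that these shares have no test.

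**Figure D4:**
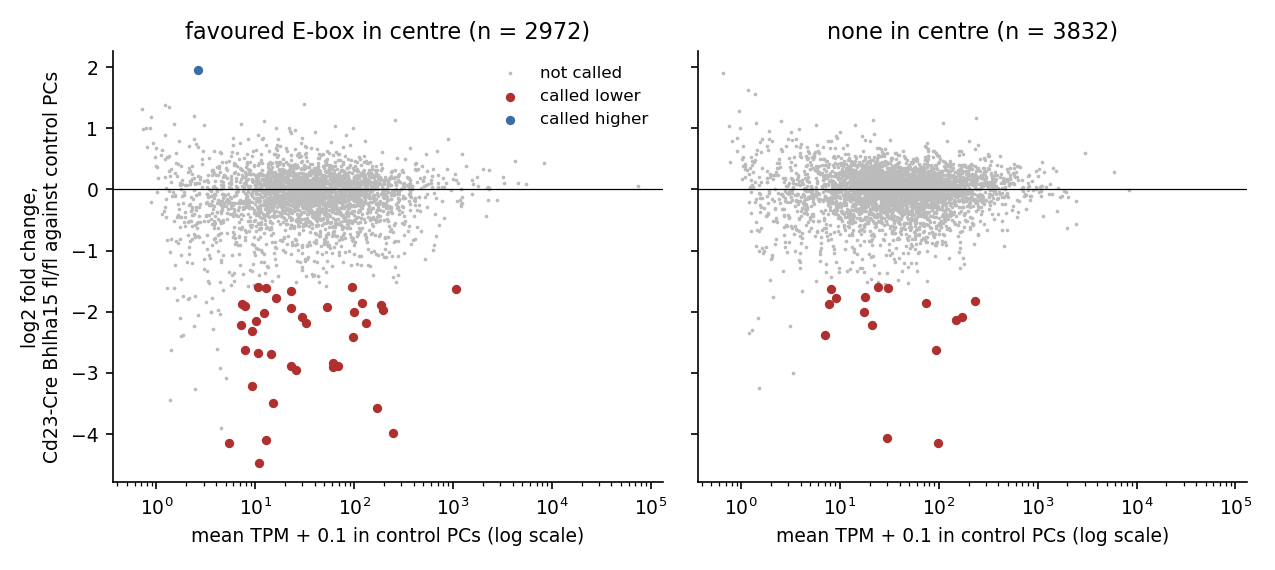
log2 fold change in Mist1-deficient against control PCs (vertical axis) by mean TPM plus 0.1 in control PCs (horizontal log axis) for tested genes with a common Mist1 region at a TSS, with a favoured E-box in the central 200 bp (left, n = 2972) or without one (right, n = 3832). Red points are genes called lower, 37 on the left and 16 on the right, the blue point is the gene called higher and grey points were not called.

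Among the genes that fell furthest, Rab3d and Rab26 encode small GTPases of secretory vesicles. Rab3d was at 116 and 79.7 TPM in control PCs and at 4.57 and 6.14 TPM in Mist1-deficient PCs, a log2 fold change of -4.14 ± 0.23 (SE, limma adjusted p = 0.00117). Rab26 was at 29.1 and 21.9 TPM in control PCs and at 3.21 and 3.08 TPM in the absence of Mist1 (log2 fold change -2.95 ± 0.17, limma adjusted p = 0.0013). The libraries of the groups did not overlap for either gene, which adds no support because both were chosen for their large fall. The regions were 2079 bp wide with 11 favoured E-boxes at Rab3d and 1009 bp wide with 4 at Rab26, and both covered the TSS. The central 200 bp of the Rab3d region, however, held no favoured E-box. Rab20 and Sytl1, a synaptotagmin-like protein, were also called lower. Rab20 was at 8.80 and 6.83 TPM in control PCs and at 1.15 and 3.36 TPM in Mist1-deficient PCs (log2 fold change -1.90 ± 0.48, limma adjusted p = 0.0329), and Sytl1 was at 11.7 and 9.30 TPM and at 2.96 and 3.74 TPM (-1.60 ± 0.20, limma adjusted p = 0.00417). Together with Rab3d and Rab26, these were 4 of the 27 tested genes with a member on a list of vesicle traffic genes, of which 7 fell and 8 rose by adjusted p and whose median log2 fold change was 0.12. Over all genes tested, 0.723% were called lower, 16.2% fell and 13.3% rose. The list, with these 4 genes on it, was chosen with earlier results of these data known. Its counts are therefore a description and no test of enrichment.

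Nes, which encodes the intermediate filament protein nestin, was at 14.9 and 10.6 TPM in control PCs and at 0.496 and 0.792 TPM in Mist1-deficient PCs (log2 fold change -4.10 ± 0.30, limma adjusted p = 0.00154). Its region was the narrowest among the 15 genes with 549 bp and lay 350 bp downstream of the TSS without covering it. Tubb2a, a beta-tubulin, was at 64.7 and 56.5 TPM and at 8.88 and 7.07 TPM (-2.90 ± 0.14, limma adjusted p = 0.000987). Kif19a, a kinesin, was at 24.5 and 20.9 TPM and at 2.84 and 3.06 TPM (-2.88 ± 0.14, limma adjusted p = 0.000987), and its region held a single E-box. Asap3, a GTPase-activating protein for Arf proteins, was low, at 6.09 and 4.47 TPM in control PCs and at 0.0989 and 0.342 TPM in Mist1-deficient PCs (-4.15 ± 0.49, limma adjusted p = 0.00378). For each of these genes the control libraries were both above the Mist1-deficient libraries, as the choice by the size of the fall made likely.

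The largest change was that of Dll3, a member of the Delta family of Notch ligands, which was at 13.4 and 8.15 TPM in control PCs and at 0.383 and 0.361 TPM in Mist1-deficient PCs (log2 fold change -4.47 ± 0.32, limma adjusted p = 0.00149). Its region held 10 favoured E-boxes in 1537 bp. Tmem150a, a transmembrane protein, was at 189 and 148 TPM and at 13.1 and 14.5 TPM (-3.57 ± 0.14, limma adjusted p = 0.000748), and its row in the files carries a mark that reads as an overlap with another gene. The rows of Atp1b1, Angptl6, Preb, Ddit3, Creb3 and Surf4, named below, are marked as well, and the part of these marks in the levels was not tested. Abcb6, a transporter of the ABC family, was at 78.9 and 59.3 TPM and at 8.66 and 9.40 TPM (-2.89 ± 0.16, limma adjusted p = 0.00117). Cib2, a calcium- and integrin-binding protein, was at 73.4 and 47.4 TPM and at 7.50 and 8.60 TPM (-2.84 ± 0.22, limma adjusted p = 0.00174). Gm996, 2410066E13Rik, Car5b, a mitochondrial carbonic anhydrase, and Mrgpre, a receptor of the Mas-related family, completed the 15 genes, with log2 fold changes of -4.07, -3.49, -3.21 and -2.69 (limma adjusted p between 0.000748 and 0.0023). The region covered the TSS at 12 of the 15 genes, and 13 of them had a favoured E-box in the centre.

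The 1 gene with a member that was called higher was 1700026L06Rik, which was at 1.58 and 3.54 TPM in control PCs and at 10.3 and 8.40 TPM in Mist1-deficient PCs (log2 fold change 1.95 ± 0.35, limma adjusted p = 0.0125). Its region lay downstream of the TSS without covering it, at 926 bp to the midpoint. The call was lost without control replicate 1, without either Mist1-deficient replicate, without the variance trend and with a TSS distance of 500 bp.

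**Figure D5:**
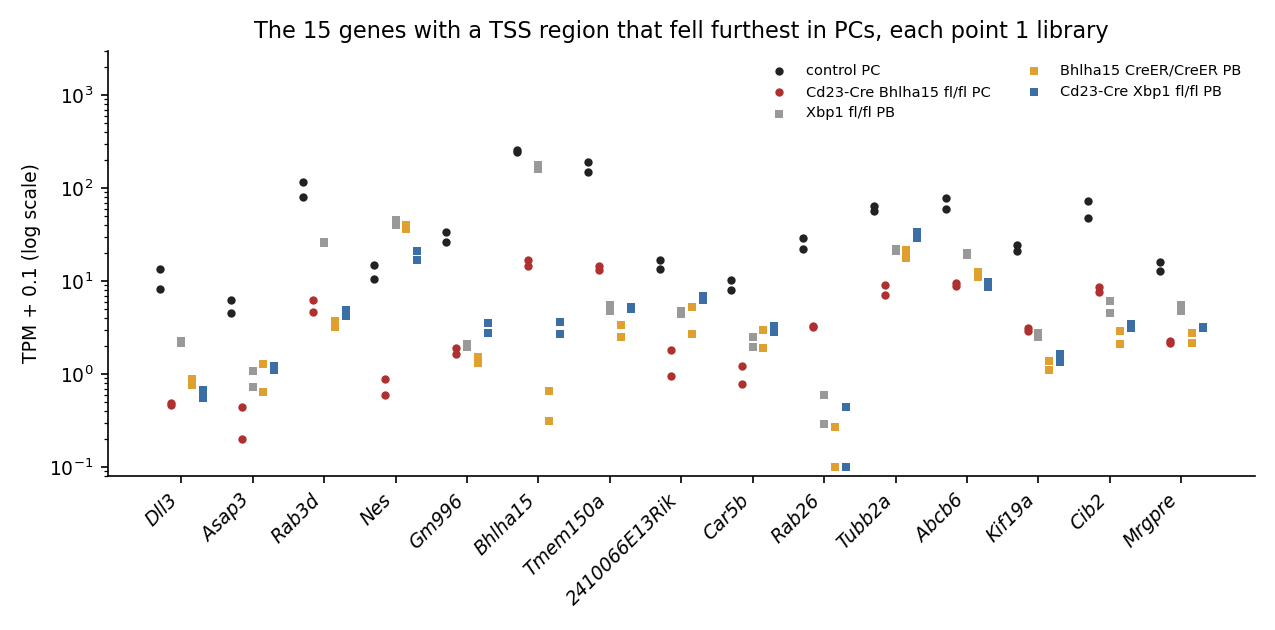
TPM plus 0.1 in each library (vertical log axis) of the 15 genes with a common Mist1 region at a TSS that fell furthest in Mist1-deficient PCs (horizontal axis). Circles are PC libraries and squares PB libraries, 2 in each group, coloured by group. For every gene both control PC libraries lie above both Mist1-deficient PC libraries, as the choice of genes by the size of their fall made likely. Several genes, such as Rab26 and Tmem150a, were low in all PB groups.

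In Mist1-deficient PBs, few genes with a member passed the test. The Bhlha15(CreER/CreER) PBs carry CreER in the Bhlha15 gene and were compared with control PBs, a comparison between alleles of different genes. Of 6755 tested genes with a member, Rab3d and Bhlha15 were called lower, compared with 0.033% of all 12125 genes tested, and by limma 0 were called higher, compared with 0.0165%. Bhlha15 is the gene altered in these PBs, so that its call follows from the genotype. By adjusted p alone 21 genes with a member (0.311%) fell and 2 (0.0296%) rose, compared with 0.272% and 0.0495% of all genes. At an unadjusted p under 0.05, 484 of these 6755 genes fell and 311 rose, beside 692 and 575 of all 12125 genes. Rab3d was at 26.2 and 25.4 TPM in control PBs and at 3.61 and 3.11 TPM in Mist1-deficient PBs (log2 fold change -2.87 ± 0.14, limma adjusted p = 0.000128). The genes that rose by adjusted p were Ccs and Atp1b1, of which Atp1b1, a subunit of the sodium pump, was at 1.09 and 1.48 TPM and at 4.96 and 4.09 TPM (1.79 ± 0.18, limma adjusted p = 0.00715). Without Bhlha15(CreER/CreER) replicate 1, Dusp1 and Fos were called higher, and without replicate 2 Epcam was. Of the 53 genes called lower in PCs, 49 were tested in PBs and 44 of these had a log2 fold change below 0, with a median of -0.66, compared with 48.5% of all matched genes and their median of 0.00498. By adjusted p, 6 of the 49 fell, namely Bhlha15, Rab3d, Qtrt1, Pycr1, Bckdk and Rapgef3. Pycr1, an enzyme of proline synthesis, was at 107 and 86.2 TPM in control PCs and at 17.2 and 18.3 TPM in Mist1-deficient PCs, and its log2 fold change was -2.41 ± 0.13 in PCs and -0.999 ± 0.085 in Mist1-deficient PBs (limma adjusted p = 0.00115 and 0.00303).

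The level of some of these genes in PBs was unlike that in PCs. Rab26 was at 0.188 and 0.502 TPM in control PBs and was not tested there. Tmem150a was at 4.64 and 5.48 TPM and Cib2 at 4.39 and 6.03 TPM in control PBs. Nes was higher in PBs than in PCs, at 44.8 and 40.1 TPM in control PBs and at 40.2 and 36.1 TPM in Mist1-deficient PBs, where its log2 fold change was -0.11 ± 0.13 (limma adjusted p = 0.798). PBs and PCs were not compared by a test. The PB libraries also held fibroblast markers, as given above, and the part of feeder cells in these PB levels, including that of Nes, was not tested.

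In Xbp1-deficient PBs, 34 of 35 tested genes of ER folding and translocation with a member fell by adjusted p. Of all 46 tested genes of this list, with or without a member, 43 fell, so that the fall was not particular to genes with a member. Of 6755 tested genes with a member, 135 (2.00%) were called lower and 11 (0.163%) higher in Xbp1-deficient PBs, compared with 1.63% and 0.239% of all genes. By adjusted p alone 1518 (22.5%) fell and 711 (10.5%) rose, compared with 18% and 10.3% of all genes. The same Xbp1(fl/fl) libraries served as controls for both PB comparisons. The share of genes with a favoured E-box in the centre was 45.2% among the 135 genes called lower and 43.6% among the tested genes with a member, and 23.1% of the genes with and 22.0% of those without such an E-box fell by adjusted p. The TPM as deposited moved the median over all genes from 0.00414 to 0.21 on the log2 scale in this comparison and lowered the count of 135 to 87.

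The largest falls among genes with a member after Bhlha15 (log2 fold change -5.93 ± 0.35) were those of C630004H02Rik, Fkbp11, Kcnk6 and Itgb2. Fkbp11, a peptidyl-prolyl isomerase of the ER, was at 424 and 467 TPM in control PBs and at 13.6 and 10.4 TPM in Xbp1-deficient PBs (-5.43 ± 0.13, limma adjusted p = 1.48e-07). In PCs it was higher without Mist1, at 1590 and 1537 TPM compared with 787 and 1014 TPM (0.83 ± 0.11, limma adjusted p = 0.0048). Itgb2, an integrin beta chain, was at 339 and 313 TPM and at 19.57 and 19.98 TPM upon loss of Xbp1 (-4.24 ± 0.09, limma adjusted p = 1.17e-07). It also fell upon loss of Mist1 in PCs, from 402 and 344 TPM to 196 and 197 TPM (-0.90 ± 0.10, limma adjusted p = 0.00313). Kcnk6, a potassium channel, had log2 fold changes of -4.99 ± 0.10 upon loss of Xbp1 in PBs and -0.89 ± 0.10 upon loss of Mist1 in PCs, and passed limma's adjusted p in both (1.17e-07 and 0.00319).

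The largest rises were those of Epcam, Atp1b1, Icosl, Trib3 and Angptl6. Trib3, a pseudokinase induced by ER stress, was at 11.8 and 12.6 TPM in control PBs and at 58.5 and 53.0 TPM in Xbp1-deficient PBs (log2 fold change 1.98 ± 0.10, limma adjusted p = 3.78e-06). Epcam, an adhesion molecule, was at 1.96 and 2.56 TPM and at 29.4 and 27.6 TPM (3.41 ± 0.24, limma adjusted p = 2.36e-05), and rose upon loss of Mist1 in PCs from 140 and 118 TPM to 228 and 211 TPM (0.79 ± 0.11, limma adjusted p = 0.00542). Icosl, the ligand of ICOS, was at 1.77 and 1.66 TPM and at 7.86 and 9.13 TPM (2.04 ± 0.21, limma adjusted p = 0.000202).

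Of 15 regulators of plasma cells, 10 (66.7%) had a member, beside 61.69% of all tested genes. Of the others, 4 (Irf4, Xbp1, Pou2f2 and Ell2) had a wide region and Id3 had a region within 10 kb only. With wide regions counted, all of these regulators except Id3 had a region at a TSS, beside 65.2% of all tested genes. The list was chosen with earlier results of these data known, and this difference was not tested. The region of Prdm1, which encodes Blimp1, was 1749 bp wide with a midpoint 300 bp upstream of the TSS and 4 favoured E-boxes, none of them in the centre. Prdm1 was at 175 and 198 TPM in control PCs and at 237 and 203 TPM in Mist1-deficient PCs (log2 fold change 0.25 ± 0.09), which did not pass the test (limma adjusted p = 0.0793). The region of Bhlha15 itself was 1776 bp wide and held 11 favoured E-boxes, 3 of them in the centre. Among the 9 tested regulators with a member, limma's adjusted p was passed in PCs, apart from Bhlha15, by Id2 and Tcf12, which fell, and by Tcf3 and Pou2af1, which rose, beside 16.2% and 13.3% of all genes. Of those with a wide region, Pou2f2 fell from 122.6 and 122.1 TPM to 65.44 and 56.93 TPM (-0.98 ± 0.08, limma adjusted p = 0.00184), in a row that is marked like that of Tmem150a, and Irf4 rose from 688 and 739 TPM to 947 and 886 TPM (0.38 ± 0.06, limma adjusted p = 0.00952). Id2, an inhibitor of E proteins, was at 18.1 and 19.8 TPM in control PCs and at 11.9 and 13.4 TPM in Mist1-deficient PCs (-0.56 ± 0.10, limma adjusted p = 0.0114), and Tcf12, an E protein, was at 99.2 and 91.9 TPM and at 73.9 and 69.5 TPM (-0.39 ± 0.08, limma adjusted p = 0.0163). Tcf3, another E protein, was at 179 and 198 TPM and at 229 and 228 TPM (0.30 ± 0.06, limma adjusted p = 0.0136), and Pou2af1, a coactivator of Oct factors, was at 1510 and 1579 TPM and at 1937 and 1816 TPM (0.30 ± 0.07, limma adjusted p = 0.0241). Irf4, Id2, Tcf12, Tcf3 and Pou2af1 no longer passed the test when a Mist1-deficient library was left out. Ikzf1, Ikzf3 and Tcf4 did not pass the test in PCs, and Zbtb20, which had a member, could not be matched to a row of the expression files. Of 11 regulators of B cells 9 had a member, of which Ets1 (106 and 126 TPM) and Irf8 (62.7 and 83.8 TPM) had the highest levels in control PCs.

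Of 12 regulators of the UPR, 8 (66.7%) had a member, beside 61.69% of all tested genes. Ern1, Atf4 and Hspa5 had a wide region and Creb3 had a region within 10 kb only. With wide regions counted, all except Creb3 had a region at a TSS, beside 65.2% of all tested genes, and this difference was not tested. In PCs, Creb3l1, a transcription factor anchored in the ER, was called lower, at 8.19 and 6.36 TPM in control PCs and at 1.62 and 2.18 TPM in Mist1-deficient PCs (log2 fold change -1.87 ± 0.24, limma adjusted p = 0.0045). Eif2ak3, which encodes the ER stress sensor PERK, had a log2 fold change of -0.35 ± 0.09 (limma adjusted p = 0.0368, lost when either Mist1-deficient library was left out), and the other 6 genes with a member did not pass the test. Upon loss of Xbp1, Nfxl1, Atf6b and Preb were called lower with log2 fold changes of -3.03 ± 0.08, -2.44 ± 0.08 and -1.87 ± 0.08 (limma adjusted p of at most 1.78e-06), Eif2ak3, Creb3l2 and Atf6 also fell by adjusted p, and Ddit3, which encodes CHOP, was called higher (1.59 ± 0.12, limma adjusted p = 3.23e-05). Among all genes tested, 1.63% were called lower, 0.239% were called higher and 18% fell by adjusted p upon loss of Xbp1. In Mist1-deficient PCs 0.723% of all genes were called lower and 16.2% fell. The list was chosen with earlier results of these data known, and the study had reported Nfxl1 and Preb as activated by Xbp1.

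Genes of ER folding and translocation had a member in 36 of 47 cases (76.6%, beside 61.69% of all tested genes), with a favoured E-box in the centre of 18 of the 36 regions. Of 35 tested genes with a member, 1 fell and 9 rose by adjusted p upon loss of Mist1 in PCs, with a median log2 fold change of 0.11, beside 16.2% and 13.3% of all genes and a median of 0.01. Upon loss of Xbp1 34 of the 35 fell by adjusted p and 18 were called lower, with a median of -1.73, beside 18% and 1.63% of all genes. Of all 46 tested genes of the list, with or without a member, 43 fell and 21 were called lower, with a median of -1.44. Creld2, a chaperone of the ER whose region also reached the TSS of Alg12, was at 3158 and 3291 TPM in control PCs and at 3729 and 3581 TPM without Mist1 (0.20 ± 0.08, limma adjusted p = 0.0979). It was at 1669 and 1596 TPM in control PBs and at 438 and 428 TPM without Xbp1 (-2.12 ± 0.11, limma adjusted p = 4.36e-06). Calr, the ER chaperone calreticulin, was at 5417 and 5609 TPM in control PCs and at 5902 and 5676 TPM without Mist1, which did not pass the test (limma adjusted p = 0.464). The cargo receptor genes Surf4, Tmed9 and Lman1 had a member and were called lower upon loss of Xbp1, with log2 fold changes of -1.73 ± 0.11, -1.82 ± 0.11 and -2.15 ± 0.09. Upon loss of Mist1 in PCs, Tmed9 and Lman1 rose, by 0.38 ± 0.07 and 0.36 ± 0.06 (limma adjusted p = 0.0154 and 0.0122), and Surf4 did not pass the test (0.24 ± 0.07, limma adjusted p = 0.0544). Tmed9 and Lman1 no longer passed the test in PCs when either Mist1-deficient library was left out.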

How the data were processed

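Peak lists and mRNA levels were used as deposited. Per the labels and the methods of the study, Bio-ChIP-seq reads were aligned to mm9 with Bowtie 1.0.0, handled with SAMtools 1.9 and Picard 2.18.27, and MACS called peaks in each experiment against mature B cell input. The lists hold positions only, and streptavidin precipitates of cells without the tag were not used here. For mRNA, the authors trimmed reads with cutadapt, aligned them with STAR 2.4.2, counted them with featureCounts 1.5 and computed TPM without immunoglobulin and T cell receptor genes, so that the depth is unknown.

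Peaks sharing at least 1 bp between the experiments were merged, and regions under 3000 bp that overlapped 1000 bp on either side of a protein-coding transcript's TSS (GENCODE M1, mm9) were kept. Sequences were read from the mm9 genome. E-boxes were searched on both strands in the central 200 bp. Gene names were matched by symbol (19092 genes) or RefSeq synonym (832 genes), and 2448 genes were not matched.

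TPM values were scaled by median-of-ratios factors, and genes that reached 1 TPM in 2 or more libraries were tested on log2(TPM + 0.1) with limma 3.58.1 in R 4.3.3 (moderated test with a trend, two-sided, Benjamini-Hochberg adjustment). The fold changes are on that scale, which understates changes of low genes. The thresholds follow the study, whose count test could not be used on TPM. PC and PB libraries were fitted separately, and the PB fit held all 6 libraries. Each group had 2 libraries, and nothing in the labels says whether they came from separate mice, so that p-values measure only the spread between these libraries. The procedure was tested on simulated data.

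The genes named are those called with the largest changes in each comparison (15 falls in PCs and up to 5 otherwise), the plasma cell and UPR regulators, from other lists the 2 members with the highest levels and up to 3 called ones, the 5 highest genes without a region and the 5 genes listed at 0 with the most E-boxes. Pycr1, Rab20, Sytl1 and other genes named beside a count of 6 or fewer were picked with their values in view. The members and lists were chosen with earlier results of these data known. Alternatives concerned overlap, TSS distance and definition, width, window, pseudocount, scaling, filter, trend and left-out libraries.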

Additional observations from a re-analysis of the deposited data

How the results depend on the processing

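The number of regions at a TSS lay between 6596 and 8906 under all alternatives run. The share of regions with an E-box in the central 200 bp (59.97%) was 58.59% with a TSS distance of 500 bp, 63% with 2500 bp, 58.28% with the 5′ end of each gene, 63.31% at the midpoint of the longest stretch shared by the experiments, 36.88% in a window of 100 bp and 83.12% in 400 bp, and 61.39% to 61.96% in single experiments. The share of tested genes with a region (61.69%) was 57.5% with an overlap of at least 50% of each peak, 60.08% at 500 bp, 64.72% at 2500 bp, 57.96% with the 5′ end of each gene, 65.2% with any width and 68.69% to 69% in single experiments. Counting all transcripts of protein-coding genes, an alternative chosen after seeing the data, gave 61.33% and 62.92%.

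The count of 53 genes called lower in PCs was 42 to 70 when a library was left out, and between 42 and 53 of the 53 genes kept their call in each alternative. The 1 gene called higher was lost (0 genes) without a trend and at 500 bp, and the count was 0 to 1 with a library left out. In Mist1-deficient PBs 0 to 2 genes were called higher with a library left out. In Xbp1-deficient PBs 87 instead of 135 genes were called lower with TPM as deposited and 6 instead of 11 higher with a pseudocount of 1, and leaving out a library gave 122 to 151 and 10 to 13. The log2 fold change in Xbp1-deficient PBs changed sign for Tcf4 (0.2059, TPM as deposited) and Ndufa4 (0.1611, TPM as deposited, and 0.2461, quantile normalization), and the cause was not tested. In the main setting both were near 0, at -0.002 (limma adjusted p = 0.989) and -0.047 (limma adjusted p = 0.799). The median over all genes moved from 0.00414 to 0.21 with TPM as deposited and to 0.0718 with quantile normalization. With a library left out, the remaining library of its group is assumed to vary like the other group. No paired analysis was possible because the labels give no replicate numbers that groups share.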
